A study of Drosophila melanogaster with 7 samples.

Results

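Cytochrome P450 genes of adult Drosophila melanogaster were followed across neuronal nuclei and whole brain. Of 15551 fly genes in the deposited gene table, 81 had a symbol made of Cyp and a number, and each had a level in all 6 libraries. One of these, Cyp1, encodes a cyclophilin (a protein-folding enzyme) and is no P450, which left 80 P450 genes. The samples compared were nuclei pulled from adult heads through a nuclear membrane tag, unc84-GFP, driven by 1 of 3 GAL4 lines, and adult whole dissected brain. The R57C10-GAL4 line drives the tag in all mature neurons (1 library in the table, of 2 samples in the labels). The OK107-GAL4 line drives it primarily, but not solely, in Kenyon cells, which make up the mushroom body (2 libraries, a and b). The Tdc2-GAL4 line drives it primarily in octopaminergic neurons (2 libraries, a and b). Whole brain (1 library) holds all brain cells and carries no driver in its label, although the labels give its material as nuclear RNA as well. Sex and age beyond adult are not given in the sources used here. Tagged nuclei came from heads and whole brain from dissected brain, so tissue and sample type cannot be told apart when they are compared.

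P450 enzymes are haem proteins that insert an oxygen atom into small molecules, with electrons passed on by a reductase partner. In insects the CYP3 clan is known mainly for clearing plant toxins and insecticides, the CYP4 clan for oxidizing fatty acids and for making cuticular hydrocarbons, and the CYP2 and mitochondrial clans include enzymes of steroid hormone metabolism. Most P450s of the fly are studied in fat body, gut and Malpighian tubule, while in the brain glia, including those of the blood-brain barrier, are known to express several.

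Steps between low values implied between 24.25 M and 62 M reads per library. At those depths 1 read on a transcript of 1.5 kb was worth between 0.0108 and 0.0275 FPKM (fragment counts divided by transcript length and by library size, the authors' unit, which allows levels of different genes to be compared). The labels held against defining genes: Tbh, the octopamine synthesis enzyme, stood at 1668 and 2159 FPKM in Tdc2 a and b and at 38.3 or less elsewhere, and ey, a Kenyon cell transcription factor, at 248 and 259 FPKM in OK107 a and b and at 35.9 or less elsewhere. Markers of non-neuronal cells were present in every library. The summed level of 13 glial genes was 243 FPKM in R57C10, between 314 and 350 in OK107 (1 gene had no value in OK107 a), between 557 and 683 in Tdc2 and 4448 in whole brain, and no glial gene was at 0. The 13 fat body genes summed to 478 FPKM in R57C10, between 156 and 159 in OK107, between 5879 and 6628 in Tdc2 and 4789 in whole brain, and Lsp1alpha and Fbp2 were listed at 0 in Tdc2 a. Outside OK107 most of this sum came from the yolk protein genes Yp1, Yp2 and Yp3. Yp1 alone had 227 FPKM in R57C10, 4104 and 3428 in Tdc2 and 2113 in whole brain. Rfabg, the highest of the other fat body genes, had 103 FPKM in R57C10, 83.0 and 78.5 in OK107, 476 and 450 in Tdc2 and 633 in whole brain. The 8 photoreceptor genes summed to 770 FPKM in R57C10, between 1479 and 1480 in OK107, between 5217 and 6199 in Tdc2 and 518 in whole brain. Sums over 7 neuronal genes lay between 2515 and 3382 FPKM (1 gene each had no value in R57C10 and OK107 b), over 9 muscle genes between 60.3 and 219 in tagged nuclei and 47.7 in whole brain, where Tm2 had no value, and over 6 hemocyte genes between 35.1 and 63.0 outside OK107. In OK107 the hemocyte sum was 4.96 and 5.08 over 5 genes, since Pxn had no value there, and He was at 0. The part these cells play in the P450 levels below was not tested, and in bulk samples fewer cells of a type and less RNA per cell cannot be told apart.

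P450 transcripts were detected in every library, and their summed level was lowest in R57C10. The sum over the 80 genes was 368 FPKM in R57C10, 632 and 643 FPKM in OK107 a and b, 503 and 584 FPKM in Tdc2 a and b, and 760 FPKM in whole brain. The gene with the highest level differed by group. It was Cyp49a1 in R57C10 (51.4 FPKM), Cyp313a1 in OK107 (114 and 115 FPKM in a and b), Cyp4g1 in Tdc2 (97.7 and 60.0 FPKM in a and b) and Cyp28d1 in whole brain (159 FPKM). At least 1 FPKM was reached by 37 P450 genes in R57C10, by 49 in each OK107 library, by 52 and 58 in Tdc2 a and b, and by 48 in whole brain.

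The clans were weighted differently in the libraries. The 35 CYP3 clan genes summed to 68.1 FPKM in R57C10, to between 174 and 217 FPKM in the other 4 tagged libraries and to 437 FPKM in whole brain. The sum of the 32 CYP4 clan genes ran the other way against whole brain. It was 223 FPKM in R57C10, 359 and 360 in OK107, 271 and 288 in Tdc2 and 194 in whole brain. The Cyp4p and Cyp4ac genes, which lie in introns of other genes, summed to 81.3 and 92.8 FPKM in R57C10 and 13.3 and 31.7 in whole brain. Their reads cannot be told apart from the hosts' unspliced RNA. Outside introns both directions occurred, with Cyp4g15 at 2.49 FPKM in R57C10 and 112 in whole brain, and Cyp4d14 at 10.0 and 1.11. The CYP4 sum therefore cannot be read as a trait of the whole clan. The 9 mitochondrial P450 genes summed to between 52.3 and 71.5 FPKM in the tagged libraries and 118 in whole brain. The 4 CYP2 clan genes summed to 10.2 FPKM or less in each of the 6 libraries.

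**Figure D1:**
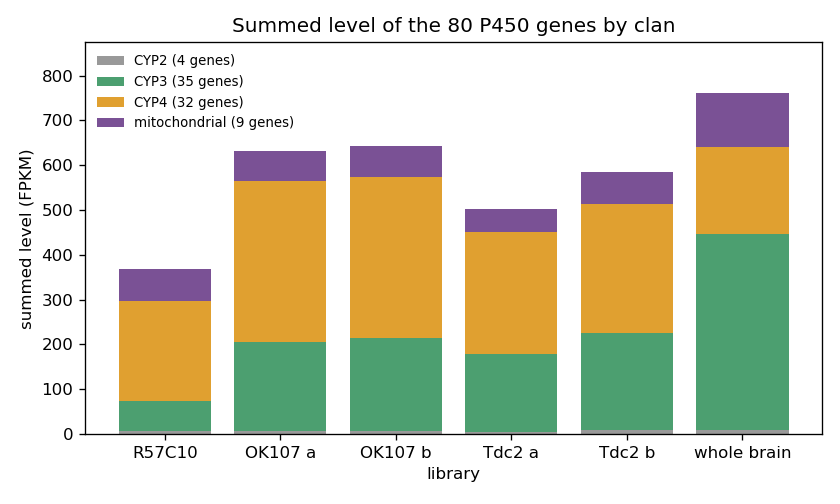
Summed FPKM of the 80 P450 genes in each of the 6 libraries, stacked by clan. The CYP3 clan makes up 437 of 760 FPKM in whole brain and 68.1 of 368 FPKM in R57C10, and the CYP4 clan is the tallest block in all 5 tagged libraries.

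At their highest, 27 P450 genes reached 10 FPKM, 34 lay between 1 and 10 FPKM, and 19 stayed under 1 FPKM in every library. Of the 27, 12 had their highest level in whole brain, 7 in R57C10, 4 in an OK107 library and 4 in a Tdc2 library. Between the OK107 libraries the log2 ratio of b to a had an SD of 0.14 over the 48 P450 genes at 1 FPKM in both. Between the Tdc2 libraries the SD was 0.40 over 51 P450 genes, and 43 of the 51 were higher in Tdc2 b. Over all genes at 1 FPKM in both libraries of a pair, the SD was 0.16 for OK107 and 0.37 for Tdc2. Of 8927 such genes in Tdc2, 5100 were higher in Tdc2 b. The median log2 ratio of Tdc2 b to a was 0.24 over the P450 genes and 0.06 over all genes. Tests were made with limma on log2(FPKM + 1) over every gene that reached 1 FPKM in 2 or more libraries, which kept 56 P450 genes for comparisons among tagged nuclei and 57 for those with whole brain. A difference below is on that scale with its standard error (SE), and a gene passed at a Benjamini-Hochberg adjusted p under 0.05 over all genes tested. The fit takes the spread of the single R57C10 and whole brain libraries to equal that of the pairs. Nothing in the labels says that the samples of a pair came from separate collections of flies, so p-values measure only the spread between these samples.

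**Figure D2:**
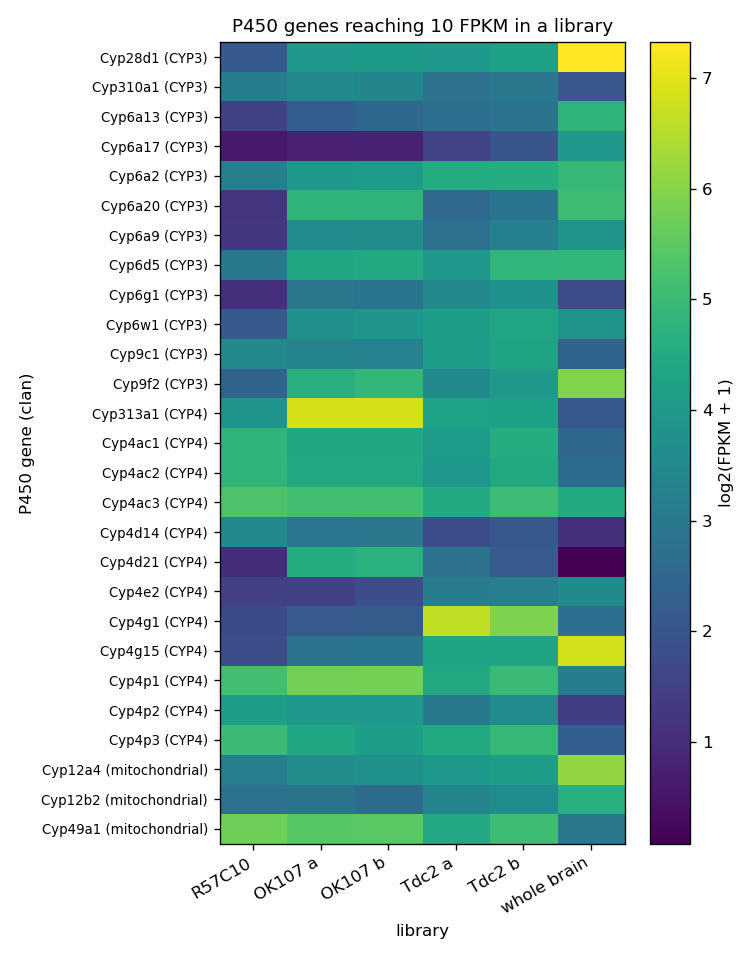
Level, as log2(FPKM + 1) in colour, of the 27 P450 genes that reached 10 FPKM in a library, with genes in rows by clan and the 6 libraries in columns. Bright single columns mark Cyp28d1 and Cyp4g15 in whole brain, and bright pairs mark Cyp313a1 in OK107 and Cyp4g1 in Tdc2.

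R57C10 nuclei had lower levels than whole brain of many P450 genes, mostly of the CYP3 clan. Of 57 P450 genes tested, 28 were lower in R57C10, where 32.8% of all genes tested were lower, and 13 were higher, where 22.3% of all were higher. The CYP3 clan gave 18 of the lower genes among 27 tested, with 2 higher, and the CYP4 clan gave 4 lower and 8 higher among 20 tested. Centring each library on its median left 25 lower and 18 higher. The 9605 genes tested had a median difference of -0.22, and the median over all 80 P450 genes was -0.09, against 0 over the 14868 genes with values.

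Cyp28d1, a CYP3 clan gene linked to nicotine tolerance, had 3.38 FPKM in R57C10, 14.6 and 15.4 FPKM in OK107 a and b, 14.8 and 17.6 FPKM in Tdc2 a and b, and 159 FPKM in whole brain. Whole brain stood above all tagged libraries and R57C10 below them. The difference between R57C10 and whole brain was -5.19 ± 0.18 (limma adjusted p = 0.0003). Its neighbour Cyp28d2 ran differently, with 4.16 FPKM in R57C10, 6.33 to 6.87 in OK107, 3.39 to 5.04 in Tdc2 and 2.09 in whole brain.

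Cyp4g15, the paralog of the hydrocarbon enzyme Cyp4g1 that is known from nervous tissue, had 2.49 FPKM in R57C10, 6.26 and 6.41 in OK107, 18.9 and 18.7 in Tdc2 and 112 in whole brain. The 4 groups did not overlap, and their order was that of the summed glial genes given above. The difference of R57C10 from whole brain was -5.01 ± 0.15 (limma adjusted p = 0.000282), that of OK107 -3.94 ± 0.13 (limma adjusted p = 0.00032) and that of Tdc2 -2.51 ± 0.13 (limma adjusted p = 0.000864). The same order of groups, without overlap, held for other genes too, among them Cyp12a4, Cyp6a13, Cyp6a17, Cyp6a2 and the cyclophilin gene Cyp1. Whether glial nuclei among the tagged ones contribute to any of these levels was not tested.

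Other P450s low in R57C10 included Cyp9f2, with 4.32 FPKM in R57C10, 24.6 and 28.2 in OK107, 10.6 and 14.6 in Tdc2 and 60.6 in whole brain (-3.53 ± 0.25, limma adjusted p = 0.000921). Cyp6a17, known for a role in temperature preference, had 0.492 FPKM in R57C10, 0.664 and 0.700 in OK107, 1.97 and 3.09 in Tdc2 and 14.9 in whole brain (-3.42 ± 0.28, limma adjusted p = 0.00117). For both genes R57C10 was the lowest and whole brain the highest library. Cyp6a13 had 1.81 FPKM in R57C10 and 26.5 in whole brain, with 3.75 to 6.36 in the other tagged libraries (-3.29 ± 0.22, limma adjusted p = 0.000842).

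Among mitochondrial P450s, Cyp12a4, whose raised expression gives lufenuron resistance, had 8.14 FPKM in R57C10, 11.5 and 13.0 in OK107, 14.3 and 16.4 in Tdc2 and 68.1 in whole brain (-2.92 ± 0.18, limma adjusted p = 0.000669). Cyp12b2 had 5.84 FPKM in R57C10, 5.19 to 6.32 in OK107, 9.42 to 11.1 in Tdc2 and 24.3 in whole brain (-1.89 ± 0.22, limma adjusted p = 0.00243). Both stood highest in whole brain, and for Cyp12b2 R57C10 lay within the OK107 range. Cyp12c1 and Cyp12e1 passed in the same direction, from 3.20 and 9.73 FPKM in whole brain to 0.246 and 0.342 FPKM in R57C10. The other mitochondrial genes tested were Cyp12a5, at 2.25 to 4.00 FPKM in all 6 libraries, and Cyp49a1 and Cyp301a1, which were higher in R57C10.

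**Figure D3:**
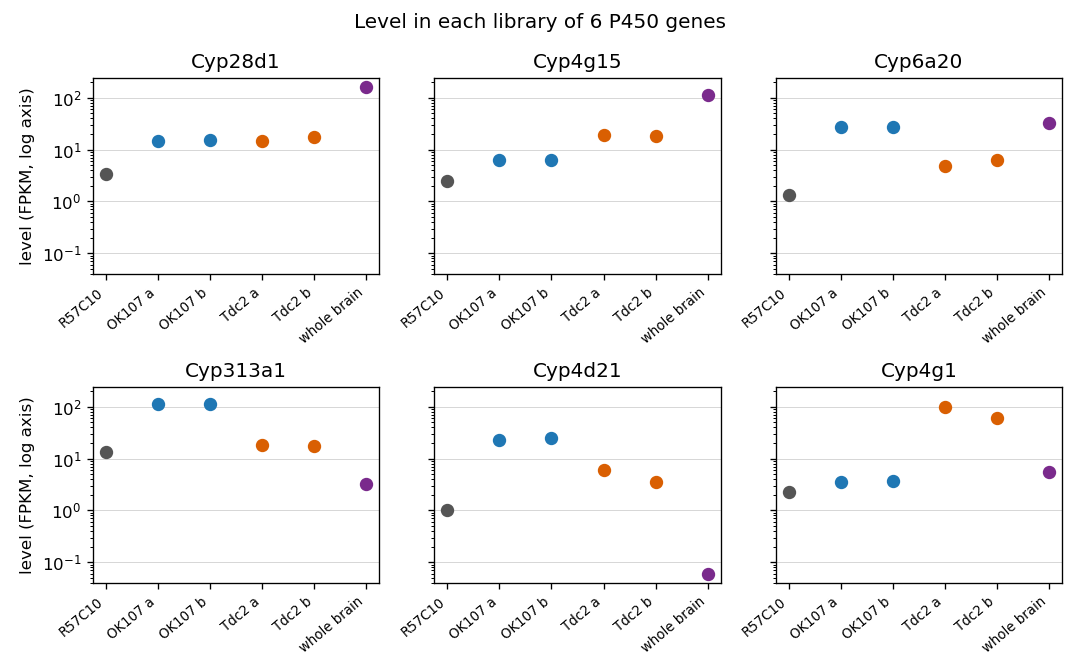
Level in FPKM on a log axis of 6 P450 genes, with 1 point for each of the 6 libraries and no error bars, since R57C10 and whole brain are 1 library each. Cyp28d1 and Cyp4g15 peak in whole brain, Cyp6a20 is high in both OK107 and whole brain, Cyp313a1 and Cyp4d21 peak in OK107, and Cyp4g1 peaks in Tdc2.

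Of the 13 P450 genes higher in R57C10 than in whole brain, 9 lie within another gene. By the BDGP6 annotation, which is of another build than the files and was used here only for which genes overlap, 16 of the 80 P450 genes lie in an intron of a coding gene, 17 share exon bases with one, and 47 do neither. This division was made after the levels had been seen, and no test was made of it. The 16 nested genes had a median difference between R57C10 and whole brain of 1.08, and 13 of the 16 were above 0. Genes sharing exon bases had a median of -0.06 and the remaining 47 a median of -0.37. Over all coding genes in the table the same split gave 1.18 for 1201 nested genes, -0.26 for 3601 genes sharing exon bases and 0 for 8414 others, so the pattern is not particular to P450 genes.

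Of 14 nested P450 genes tested, 9 were higher in R57C10 than in whole brain and 2 were lower (22.3% and 32.8% of all genes tested), and of 30 tested with neither kind of overlap 1 was higher and 20 were lower. In OK107 against whole brain 10 nested genes were higher and 1 lower, beside 31.5% and 22% of all genes tested, and in Tdc2 against whole brain 11 were higher, beside 21.2% of all. The adjusted p of the remaining 3 missed the threshold in each. The median of the 16 nested genes was 1.55 for OK107 and 1.56 for Tdc2 against whole brain. Over all 1201 nested coding genes it was 1.13 for OK107 and 0.80 for Tdc2. Because the files do not say whether reads were counted by strand, reads from a nested gene and from the host's unspliced RNA cannot be told apart, least of all in nuclear RNA. For 14 of the 16 the host is on the opposite strand, and for Cyp4g1 (in CG32816) and Cyp6a2 (in Epac) it is on the same strand. The genes sharing exon bases include Cyp28d1 (with CG7742), Cyp12b2 (with Jabba), Cyp4e1 (with Mal-A1), Cyp317a1 (with Kank) and Cyp6a9 (with Cyp6a19). Each of these partners is on the opposite strand, and reads in the shared bases cannot be told apart either.

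**Figure D4:**
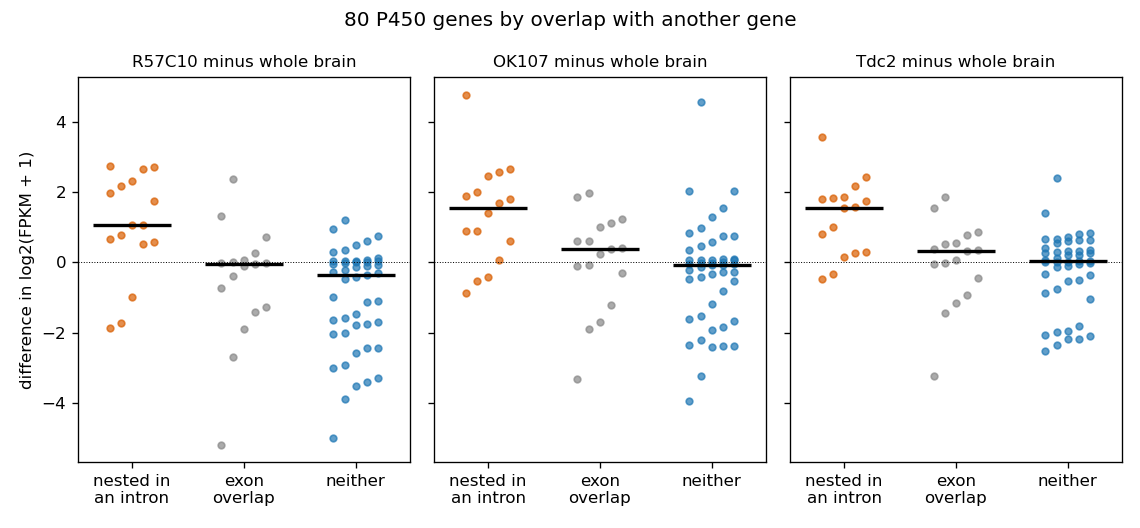
Difference in log2(FPKM + 1) between each tagged group and whole brain for the 80 P450 genes, with 1 point a gene, split into 16 genes nested in an intron of a coding gene, 17 sharing exon bases with one and 47 with neither. Black bars are medians, which for nested genes are 1.08, 1.55 and 1.56 in R57C10, OK107 and Tdc2.

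The trios Cyp4p1, Cyp4p2 and Cyp4p3 (within hig) and Cyp4ac1, Cyp4ac2 and Cyp4ac3 (within tkv) held much of this signal. The Cyp4p trio summed to 81.3 FPKM in R57C10, 89.2 and 86.7 in OK107, 49.8 and 69.9 in Tdc2 and 13.3 in whole brain. Cyp4p3 had 31.2 FPKM in R57C10, 20.0 and 16.7 in OK107, 21.5 and 29.1 in Tdc2 and 3.77 in whole brain, and its difference between R57C10 and whole brain was 2.75 ± 0.26 (limma adjusted p = 0.00152). Whole brain lay below all 5 tagged libraries for each of the 3 genes.

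Cyp4p2 differed between R57C10 and whole brain by 2.68 ± 0.29 (limma adjusted p = 0.00221), from 16.2 FPKM in R57C10 to 1.68 in whole brain, with 15.0 in both OK107 libraries and 7.08 and 10.9 in Tdc2. Cyp4p1 had 34.0 FPKM in R57C10, 54.2 and 55.0 in OK107, 21.2 and 29.9 in Tdc2 and 7.81 in whole brain (OK107 against whole brain 2.66 ± 0.21, limma adjusted p = 0.000967). The host hig, a synaptic cleft protein gene, had 186 FPKM in R57C10 and 131 in whole brain, a difference of 0.50 ± 0.15 (limma adjusted p = 0.0371). The host's difference was thus smaller than that of any of the 3 nested genes.

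Cyp4ac1 had 27.2 FPKM in R57C10, 20.1 and 20.3 in OK107, 16.1 and 22.8 in Tdc2 and 4.66 in whole brain (2.32 ± 0.25, limma adjusted p = 0.00221). Cyp4ac2 followed it closely, with 27.1 FPKM in R57C10 and 5.28 in whole brain (2.17 ± 0.28, limma adjusted p = 0.00327), and 14.3 to 21.2 in the other tagged libraries. Cyp4ac3 was the highest of the trio in every library, and its level in Tdc2 a was close to that in whole brain, with 38.5 FPKM in R57C10, 34.2 and 34.0 in OK107, 21.9 and 31.8 in Tdc2 and 21.8 in whole brain, and it missed the threshold (0.79 ± 0.26, limma adjusted p = 0.0515). The host tkv, a BMP receptor gene, ran opposite to them, with 13.1 FPKM in R57C10 and 28.2 in whole brain (-1.05 ± 0.22, limma adjusted p = 0.0126).

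Cyp49a1, a mitochondrial P450 nested in the gene of the G protein subunit Galphao, had 51.4 FPKM in R57C10, 42.7 and 43.7 in OK107, 20.7 and 32.7 in Tdc2 and 6.96 in whole brain. Every tagged library was above whole brain (R57C10 2.72 ± 0.31, limma adjusted p = 0.0024), and Tdc2 was below R57C10 (-0.96 ± 0.27, limma adjusted p = 0.0458). Its host had 443 FPKM in R57C10 and 766 in whole brain (-0.79 ± 0.19, limma adjusted p = 0.0195). Cyp310a1, in MESR3, had 7.76 FPKM in R57C10, 10.6 and 9.62 in OK107, 5.89 and 6.92 in Tdc2 and 3.17 in whole brain. Cyp9c1, in CG13594, had 10.3 FPKM in R57C10, 8.93 and 8.79 in OK107, 16.5 and 19.0 in Tdc2 and 4.32 in whole brain. All tagged libraries exceeded whole brain for both genes, and both passed in each of the 3 comparisons with whole brain.

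The nested genes that were lower in R57C10 than in whole brain were Cyp6d5 and Cyp6a2. Cyp6a2, which metabolizes insecticides including DDT, had 8.02 FPKM in R57C10, 14.8 and 15.9 in OK107, 22.7 and 22.9 in Tdc2 and 28.9 in whole brain (-1.73 ± 0.15, limma adjusted p = 0.00129). Cyp6d5, in rdx, had 7.10 FPKM in R57C10, 20.6 and 21.8 in OK107, 14.7 and 27.8 in Tdc2 and 28.3 in whole brain (-1.86 ± 0.41, limma adjusted p = 0.0162). Tdc2 b and whole brain stood close together for Cyp6d5, and the Tdc2 pair was wider apart than Tdc2 b and whole brain.

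Among genes not nested, Cyp4d14 was the one most above whole brain in R57C10, and it shares exon bases with ND-B14.5A on the other strand. It had 10.0 FPKM in R57C10, 6.64 and 6.77 in OK107, 2.57 and 3.21 in Tdc2 and 1.11 in whole brain, with no overlap between groups (2.39 ± 0.21, limma adjusted p = 0.00129). Its neighbour Cyp4d2, which overlaps no coding gene, had 4.01 FPKM in R57C10, 7.24 and 8.65 in OK107, 2.91 and 2.90 in Tdc2 and 1.17 in whole brain (1.21 ± 0.20, limma adjusted p = 0.00691).

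Nuclei of the OK107 line, mostly Kenyon cells by their label, had higher levels of many P450 genes than R57C10 nuclei, 16 of them in the CYP3 clan and 7 in the CYP4 clan. Against R57C10, 24 of 56 P450 genes tested were higher in OK107 and 0 were lower by limma, while 21.4% of all genes tested were higher and 3.56% lower. At an unadjusted p under 0.05 the counts were 29 higher and 2 lower, and limma without trend and robust fitting gave 24 and 0. The median of all 9585 genes tested was 0.30 in this comparison. Relative to it, with libraries centred on their medians, 17 P450 genes were higher and 6 lower, and quantile normalization gave 14 and 3. Over all 80 P450 genes the median difference was 0.22, against 0.10 over all genes with values. The number passing moved with single libraries. It fell without either OK107 library and rose without either Tdc2 library, where some P450 genes were lower in OK107. Such fits leave 1 library in a group and take the spread from the other pair alone. Of the markers of other cell types, 8 of 11 glial and 5 of 8 photoreceptor genes tested were higher in OK107 than in R57C10, as were 2 of 10 fat body and 1 of 9 muscle genes, while 3 fat body genes were lower. Their part in these counts was not tested.

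Cyp313a1, a CYP4 clan gene nested in the phosphodiesterase gene Pde6, had 13.2 FPKM in R57C10, 114 and 115 in OK107, 18.3 and 17.9 in Tdc2 and 3.20 in whole brain. Both OK107 libraries stood far above the rest. The difference of OK107 from R57C10 was 3.02 ± 0.11 (limma adjusted p = 0.00143), from Tdc2 2.60 ± 0.09 (limma adjusted p = 0.00036) and from whole brain 4.78 ± 0.12 (limma adjusted p = 0.000136). The host Pde6 had 33.4 FPKM in R57C10, 32.4 and 33.0 in OK107, 25.1 in both Tdc2 libraries and 45.3 in whole brain.

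Cyp4d21, also called sxe1 and known for sex-biased expression and a role in male courtship, had 1.03 FPKM in R57C10, 22.8 and 25.3 in OK107, 5.89 and 3.58 in Tdc2 and 0.0593 in whole brain. The groups did not overlap, with OK107 highest and whole brain lowest. OK107 exceeded R57C10 by 3.62 ± 0.27 (limma adjusted p = 0.00416) and whole brain by 4.56 ± 0.28 (limma adjusted p = 0.000581). The sex of the flies is not given in the sources used here, so sex and group cannot be told apart for this gene.

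Cyp6a20, a CYP3 clan gene known for its effect on male aggression, had 1.30 FPKM in R57C10, 27.4 and 26.9 in OK107, 4.91 and 6.40 in Tdc2 and 33.0 in whole brain. OK107 stood near whole brain (-0.27 ± 0.18, limma adjusted p = 0.262) and above R57C10 (3.61 ± 0.19, limma adjusted p = 0.00194) and Tdc2 (2.09 ± 0.15, limma adjusted p = 0.00141). Cyp9f2 was likewise higher in OK107 than in R57C10 (2.36 ± 0.22, limma adjusted p = 0.00542) and, unlike Cyp6a20, lower in OK107 than in whole brain (-1.17 ± 0.22, limma adjusted p = 0.00918).

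Cyp6a9 had 1.35 FPKM in R57C10, 11.2 and 11.3 in OK107, 5.84 and 8.34 in Tdc2 and 14.2 in whole brain (OK107 against R57C10 2.38 ± 0.23, limma adjusted p = 0.00544). Cyp4e1 had 0.256 FPKM in R57C10, 5.92 and 5.21 in OK107, 0.993 and 1.77 in Tdc2 and 0.648 in whole brain (2.38 ± 0.25, limma adjusted p = 0.00631). Both were lowest in R57C10. Cyp4e1 was highest in OK107, with no overlap, and Cyp6a9 in whole brain.

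OK107 against whole brain gave 23 P450 genes higher, where 31.5% of all genes tested were higher, and 18 lower, where 22% were lower, of 57 tested. After Cyp4g15, the genes furthest below whole brain were Cyp28d1 (-3.33 ± 0.15, limma adjusted p = 0.000412), Cyp6a17 (-3.24 ± 0.24, limma adjusted p = 0.000826), Cyp6a13 (-2.39 ± 0.19, limma adjusted p = 0.000966) and Cyp12a4 (-2.39 ± 0.16, limma adjusted p = 0.000638). The difference of Cyp9h1 was similar, from 6.03 FPKM in whole brain to 0.422 and 0.345 in OK107 (-2.35 ± 0.18, limma adjusted p = 0.000835). All 5 are outside introns of other genes. The median over all 80 P450 genes was 0.06 in this comparison and 0.04 over all genes with values.

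Tdc2 nuclei had higher levels of many P450 genes than R57C10 nuclei. Of 56 P450 genes tested, 35 were higher in Tdc2, where 20.6% of all genes tested were higher, and 3 were lower, where 15.2% were lower. Median centring gave 33 higher and 8 lower, and quantile normalization 28 and 6. All but 3 of the 27 CYP3 clan genes tested were higher. Among the higher genes, Cyp12c1, Cyp6a17, Cyp6a22, Cyp6g2, Cyp6t1, Cyp6t3 and Cyp9h1 reached 1 FPKM only in the Tdc2 libraries of the 5 fitted. They entered the fit through those alone, so their direction was largely set by the filter. The single R57C10 library could let in no gene that way. The median over all 80 P450 genes was 0.52, against 0 over all genes with values. The number passing in either direction fell without either OK107 library, and more genes were lower without either Tdc2 library. Markers of other cell types moved with these genes: 10 of 11 glial, 7 of 10 fat body, 8 of 8 photoreceptor, 3 of 3 hemocyte and 5 of 9 muscle genes tested were higher in Tdc2 than in R57C10, and 1 glial gene was lower. Of the markers tested, Lsp2 (fat body), nimC1 (hemocyte) and Act88F (muscle) also reached 1 FPKM only in the Tdc2 libraries of the 5 fitted. The direction of those markers was largely set by the filter as well. The part of the marker genes in the P450 counts was not tested.

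Cyp4g1, the decarbonylase that makes cuticular hydrocarbons and is known as an oenocyte enzyme, had 2.30 FPKM in R57C10, 3.50 and 3.61 in OK107, 97.7 and 60.0 in Tdc2 and 5.56 in whole brain. The Tdc2 libraries stood above all others and differed from each other by more than the OK107 pair did. Tdc2 exceeded R57C10 by 4.56 ± 0.30 (limma adjusted p = 0.00187) and whole brain by 3.56 ± 0.30 (limma adjusted p = 0.00186). The difference of OK107 from Tdc2 was -4.09 ± 0.24 (limma adjusted p = 0.000995). The 7 oenocyte and hydrocarbon genes summed to 165 FPKM in R57C10, between 212 and 217 in OK107, between 335 and 366 in Tdc2 and 405 in whole brain, nearly all from desat1, and Fad2 was listed at 0 in OK107 a. Without desat1 their levels were low: svp had 19.2 and 23.0 FPKM in Tdc2, and the other 5 genes stayed at 3.65 FPKM or less there. All 5 oenocyte genes tested were higher in Tdc2 than in R57C10, beside 20.6% of all genes tested. Of these, v(2)k05816 (1.70 FPKM in both Tdc2 libraries) entered the fit through Tdc2 alone. The part of the oenocyte genes in the level of Cyp4g1 was not tested.

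Cyp6g1, known for resistance to DDT and neonicotinoids, had 1.09 FPKM in R57C10, 6.79 and 6.41 in OK107, 10.7 and 12.9 in Tdc2 and 2.49 in whole brain. The groups did not overlap and Tdc2 was highest (against R57C10 2.61 ± 0.17, limma adjusted p = 0.00187, and against whole brain 1.87 ± 0.18, limma adjusted p = 0.00225). Cyp6g1 shares exon bases with Cyp6g2, which had 2.29 FPKM or less in each library. Cyp6w1, another insecticide-associated P450, had 3.34 FPKM in R57C10, 12.5 and 13.7 in OK107, 16.5 and 19.3 in Tdc2 and 13.2 in whole brain (Tdc2 against R57C10 2.12 ± 0.17, limma adjusted p = 0.00216). For Cyp6w1 R57C10 alone stood apart, and whole brain lay within the OK107 range.

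Cyp28a5 had 1.00 FPKM in R57C10, 2.49 and 2.96 in OK107, 7.90 and 9.96 in Tdc2 and 9.77 in whole brain (Tdc2 against R57C10 2.30 ± 0.20, limma adjusted p = 0.00272). Cyp4e2 had 1.76 FPKM in R57C10, 1.87 and 2.56 in OK107, 7.72 and 8.14 in Tdc2 and 10.4 in whole brain. In both genes Tdc2 and whole brain formed the high side and R57C10 and OK107 the low side. The 3 genes lower in Tdc2 than in R57C10 were Cyp4d14 (-1.51 ± 0.17, limma adjusted p = 0.00433), Cyp49a1 and Cyp301a1, a cuticle-associated mitochondrial P450 (2.43 FPKM in R57C10, 2.15 and 2.31 in OK107, 0.910 and 1.19 in Tdc2, 1.09 in whole brain; -0.75 ± 0.18, limma adjusted p = 0.028).

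Tdc2 against whole brain gave 20 P450 genes higher, where 21.2% of all genes tested were higher, and 14 lower, where 29.1% were lower, of 57 tested. Of the higher genes, Cyp6a22 and Cyp6t3 reached 1 FPKM in the Tdc2 libraries alone and entered the fit through them. The median of all 9605 genes tested was -0.15, and quantile normalization gave 14 higher and 16 lower. Besides Cyp4g1, the genes furthest above whole brain were Cyp4p3 (2.45 ± 0.22, limma adjusted p = 0.00218), Cyp4d21 (2.41 ± 0.28, limma adjusted p = 0.00348) and Cyp313a1 (2.18 ± 0.12, limma adjusted p = 0.000864). Those furthest below were Cyp28d1 (-3.23 ± 0.15, limma adjusted p = 0.000864), Cyp4g15, Cyp6a20 (-2.36 ± 0.18, limma adjusted p = 0.00161), Cyp6a17 (-2.19 ± 0.24, limma adjusted p = 0.00313) and Cyp9f2 (-2.19 ± 0.22, limma adjusted p = 0.00259). Over all 80 P450 genes the median was 0.24 and over all genes with values 0.

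OK107 against Tdc2 gave 19 P450 genes higher, where 34.3% of all genes tested were higher, and 15 lower, where 14% were lower, of 56 tested. All genes tested had a median of 0.28 here, and after median centring 10 P450 genes were higher and 19 lower; quantile normalization gave 13 and 19. The number passing in either direction fell without either OK107 library. The CYP4 clan gave 9 higher and 3 lower genes and the CYP3 clan 8 higher and 10 lower. Among the lower genes, Cyp12c1, Cyp6a17, Cyp6a22, Cyp6g2, Cyp6t1, Cyp6t3 and Cyp9h1 entered the fit through the Tdc2 libraries alone, so their direction was largely set by the filter. After Cyp4g1, the genes furthest below Tdc2 were Cyp4e2 (-1.48 ± 0.16, limma adjusted p = 0.00322), Cyp4g15 (-1.43 ± 0.12, limma adjusted p = 0.00169), Cyp28a5 (-1.41 ± 0.17, limma adjusted p = 0.004) and Cyp9h1 (-1.30 ± 0.14, limma adjusted p = 0.00322). Over all 80 P450 genes the median was -0.09, against 0.07 over all genes with values.

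OK107 a, OK107 b and Tdc2 a carry an earlier date tag in their column names than Tdc2 b, R57C10 and whole brain. Within the same tag, all 38 P450 genes that passed between Tdc2 and R57C10 kept their sign with Tdc2 b alone, and all 34 that passed between OK107 and Tdc2 kept it with Tdc2 a alone. The same held for the 34 genes of Tdc2 against whole brain with Tdc2 b alone. These genes had passed with the same Tdc2 library in their mean, so a kept sign was close to fixed in advance. It is no test of the tag. R57C10 and whole brain share the later tag, so it does not differ between them. OK107 has no library of the later tag, so its tag cannot be told apart from its group in comparisons with R57C10 and whole brain.

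Of the 80 P450 genes, 41 lie in 14 runs of neighbours with no other coding gene starting between them, and the longest holds 9 genes on chromosome arm 2R, in the order Cyp6a22, Cyp6a17, Cyp6a23, Cyp6a19, Cyp6a9, Cyp6a20, Cyp6a21, Cyp6a8 and Cyp317a1. The run summed to 5.00 FPKM in R57C10, 52.7 and 53.2 in OK107, 21.2 and 28.2 in Tdc2 and 68.6 in whole brain. Neighbours differed in where they were highest. Cyp6a17 was highest in whole brain, Cyp6a20 in whole brain and OK107, Cyp6a8 (3.86 and 3.92 FPKM in OK107, 0.663 in whole brain) and Cyp317a1 (2.83 and 2.71 in OK107, 0.587 in whole brain) in OK107, and Cyp6a22 (1.04 and 1.18 in Tdc2, 0.321 or less elsewhere) in Tdc2. Cyp6a23 lay between 0.521 FPKM in R57C10 and 3.19 in whole brain. Among tagged nuclei, Cyp6a17 and Cyp6a22 entered the fit through the Tdc2 libraries alone, so their direction there was largely set by the filter. Of the 8 genes of the run that were tested, all 8 were higher in Tdc2 than in R57C10, beside 20.6% of all genes tested, and 6 were higher in OK107 than in R57C10, beside 21.4%. Under the other scalings run, 8 and 6 of these still passed with median centring, and 7 and 5 with quantile normalization. These genes are close relatives, and reads of similar copies could have been split between them by the authors' counting.

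**Figure D5:**
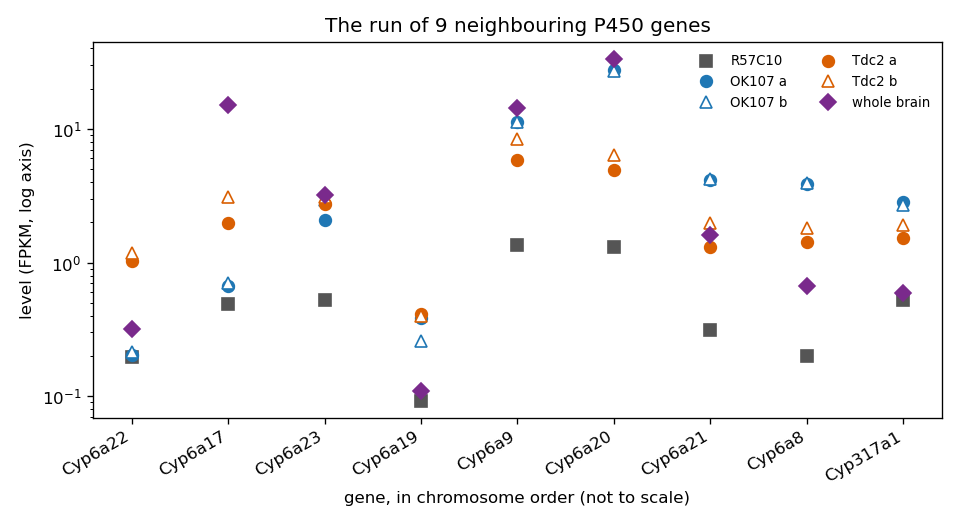
Level in FPKM on a log axis of the 9 P450 genes of the longest run, in chromosome order, with 1 point per library (filled and open symbols of the same colour are libraries a and b). R57C10 is the lowest point for every gene, while the highest point is a Tdc2 library for Cyp6a22 and Cyp6a19, whole brain for Cyp6a17, Cyp6a23, Cyp6a9 and Cyp6a20, and an OK107 library for Cyp6a21, Cyp6a8 and Cyp317a1.

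P450s of hormone metabolism were low throughout. Cyp18a1, which inactivates ecdysone, had 0.839 FPKM in R57C10, 3.15 and 2.52 in OK107, 3.15 and 5.08 in Tdc2 and 3.03 in whole brain, and R57C10 was lower than each other group. Cyp6t3, linked to ecdysteroid synthesis, had 0.440 FPKM in R57C10, 0.772 and 0.887 in OK107, 2.08 and 2.95 in Tdc2 and 0.188 in whole brain. Cyp303a1, needed for external sensory organs, had 4.24 FPKM in R57C10, 3.17 and 3.34 in OK107, 1.54 and 2.70 in Tdc2 and 1.09 in whole brain. The 6 ecdysteroid P450s whose symbols lack the Cyp stem (phm, dib, sad, shd, spo and spok) summed to between 1.61 and 3.20 FPKM, and of these spok alone was tested, with a smallest limma adjusted p over the comparisons of 0.243.

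The 19 P450 genes under 1 FPKM in every library reached at most 0.939 FPKM. They are Cyp12d1-d, Cyp12d1-p, Cyp304a1, Cyp309a1, Cyp309a2, Cyp313a2, Cyp313a3, Cyp313a4, Cyp313a5, Cyp313b1, Cyp316a1, Cyp318a1, Cyp4aa1, Cyp4ad1, Cyp4c3, Cyp4d1, Cyp6a18, Cyp6a19 and Cyp6d2. Cyp12d1-d and Cyp12d1-p are nearly identical copies and their split is uncertain. Among them Cyp313a2, Cyp313a3, Cyp313a4, Cyp313a5 and Cyp6d2 were listed at 0 in at least 1 library, where 3 reads on 1.5 kb would be worth 0.0323 to 0.0825 FPKM. The least repeatable P450 was Cyp4e3, with 1.06 FPKM in Tdc2 a and 8.88 in Tdc2 b (1.40 in R57C10, 6.17 and 5.82 in OK107, 0.692 in whole brain), and it passed in no comparison. The remaining P450 genes that peaked between 1 and 10 FPKM and are not given above are Cyp28c1, Cyp305a1, Cyp308a1, Cyp311a1, Cyp312a1, Cyp4ae1, Cyp4d20, Cyp4d8, Cyp4s3, Cyp6a21, Cyp6d4, Cyp6t1, Cyp6u1, Cyp6v1, Cyp9b1 and Cyp9b2, whose highest levels lay between 1.00 and 8.11 FPKM.

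Isoforms had values in a separate table, with 88 isoforms of the 80 P450 genes, and 4 P450 genes had 2 isoforms at 1 FPKM in the same library. Cyp4g15 is the clearest, with isoform RB making up 36.7% of the gene in R57C10, 38.8% and 34.4% in OK107, 52.8% and 22.7% in Tdc2 and 60.4% in whole brain. Whole brain was the only library led by RB besides Tdc2 a, and the Tdc2 pair spanned more than the gap from Tdc2 a to whole brain. Cyp49a1 divided mainly among RC, RD and RE, with 15.9, 17.9 and 15.8 FPKM in R57C10. Cyp9f2 came mainly from RA, at 86.1% or more in each tagged library, and Cyp311a1 switched between RA and RB within both pairs (RA at 32.0% and 0% in OK107 a and b, and 98.9% and 0.00411% in Tdc2 a and b). No test of isoform shares was made.

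Partners of the P450 enzymes were measured as well. Cpr, the reductase that supplies electrons to microsomal P450s, had 8.57 FPKM in R57C10, 21.8 and 22.2 in OK107, 22.0 and 24.8 in Tdc2 and 25.8 in whole brain. Only R57C10 stood apart (against whole brain -1.49 ± 0.16, limma adjusted p = 0.00191). Of 7 electron supply genes, 6 were lower in R57C10 than in whole brain, beside 32.8% of all genes tested, with a median of -1.26. In OK107 2 of the 7 were lower than in whole brain, beside 22% of all, and in Tdc2 2 were lower, beside 29.1% of all, and 1, Cyt-b5-r, was higher. Cyt-b5-r, a reductase of cytochrome b5, had 4.31 FPKM in R57C10, 5.84 and 6.54 in OK107, 27.2 and 31.2 in Tdc2 and 12.1 in whole brain.

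Conjugating enzymes, which act after P450s in detoxification, gave 9 of 12 glutathione S-transferase genes tested and 5 of 5 UDP-glycosyltransferase genes tested lower in R57C10 than in whole brain, beside 32.8% of all genes tested. GstD1 had 13.5 FPKM in R57C10, 49.0 and 59.4 in OK107, 46.0 and 37.9 in Tdc2 and 221 in whole brain. The whole lists, of 21 and 17 genes, summed to 29.9 and 5.52 FPKM in R57C10 and to 498 and 175 FPKM in whole brain. Some of their members were listed at 0 in at least 1 library (GstD4, GstD7, GstE10, Ugt36Bb, Ugt37c1, Ugt86Dc and Ugt86Dg). Regulators of detoxification gave 1 gene higher and 3 lower of 10 tested, near the 22.3% and 32.8% over all genes tested, and cnc, the activator of detoxification genes, had 25.1 FPKM in R57C10, 40.4 and 39.9 in OK107, 39.5 and 40.4 in Tdc2 and 34.2 in whole brain. Of the 4 juvenile hormone genes tested (Jheh1, Jheh2, Jheh3 and JhI-26) all 4 were lower in R57C10 than in whole brain, beside 32.8% of all genes tested. Among 5 other ecdysteroid synthesis genes tested the smallest limma adjusted p of this comparison was 0.0539, for Npc1a.

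In the authors' deposited table of pairwise calls, which lists a q-value only where it is below the authors' threshold, 24 P450 genes had one between whole brain and R57C10, 18 higher and 6 lower in whole brain. Between OK107 b and R57C10 22 P450 genes had one in the authors' deposited table, and between Tdc2 b and R57C10 28 had one, all higher in OK107 b or Tdc2 b. Tdc2 a against OK107 a had 14 in the authors' deposited table, with 7 higher and 7 lower in Tdc2 a, and OK107 a against OK107 b had 0.

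Cyp1, the cyclophilin that the symbol pattern also matched, had 58.3 FPKM in R57C10, 107 and 116 in OK107, 182 and 138 in Tdc2 and 537 in whole brain. Whole brain was far above all tagged libraries, and each tagged group was lower (R57C10 -3.18 ± 0.22, limma adjusted p = 0.000895). It is left out of every count above.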

How the data were processed

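The members and gene lists were chosen with earlier results of these data known. FPKM values of genes and of isoforms are as the authors deposited them, made with Cuffdiff, per the file headers. CASAVA 1.8, TopHat 1.4.0, Cuffdiff 1.3.0, bedtools 2.15 and build dm3 are named in the submitters' processing notes. Adjusted p-values (q-values) of library pairs were also deposited by the authors. The table holds 6 libraries for 7 samples, and the sources used here do not say if libraries were pooled. No per-sample column was left unmapped, and read counts were not analysed here.

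Levels were taken as log2(FPKM + 1). Groups were compared with limma 3.58.1 (R 4.3.3), using eBayes with trend and robust settings, over genes reaching 1 FPKM in 2 or more libraries, with Benjamini-Hochberg adjustment at 0.05, on 5 libraries for tagged groups and on 6 for comparisons with whole brain. The script was tested on simulated data. Named with values were P450 genes at 10 FPKM in a library, the 5 with the largest difference each way that passed, those with several isoforms at 1 FPKM, and further members chosen after their values were seen. Overlaps between genes and their order came from Ensembl's BDGP6 annotation by CG number, which matched all 81 members. Genes keep the names of the files, except overlapping genes, named as in BDGP6 (the host Galphao is G-oalpha47A in the files).

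A log2 scale with 1 added understates differences of genes at low levels. Reads implied by the steps of low values are estimates, since the share of low values that came within 0.2 of a whole number of reads was 61.8% to 69.4%. Alternatives were median centring, quantile normalization, pseudocounts of 0.1 and 5, no filter, limma without trend and robust fitting, the date tag or spike-in status as a term, and leaving out each library of a pair.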

Additional observations from a re-analysis of the deposited data

How the results depend on the processing

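No paired analysis was possible because the columns carry a date, for OK107 with a letter, and no replicate numbers, and R57C10 and whole brain have 1 library each. With the date tag as a term 35 P450 genes passed in OK107 against R57C10, all higher, and 46 in Tdc2 against R57C10, 39 higher and 7 lower. Only Tdc2 has libraries of both tags, so its pair sets that term and the spread comes from the OK107 pair. Calls rose over all genes too. Those higher went from 2047 to 3061 in OK107 and from 1979 to 2836 in Tdc2, each against R57C10. Without a filter on low values, fewer P450 genes passed: 11 in OK107 against R57C10, 14 in Tdc2 against R57C10, 21 in OK107 against Tdc2 and 21 in Tdc2 against whole brain, where more genes entered the fit. Leaving out 1 library of a pair gave between 13 (without either OK107 library) and 40 (without Tdc2 a) in OK107 against R57C10. The range was 25 (without either OK107 library) to 39 in Tdc2 against R57C10 and 12 (without OK107 b) to 36 in OK107 against Tdc2. The other counts stayed within 1.5 times the main one under the alternatives run. Single genes were recomputed under 2 scalings and 2 pseudocounts alone. There, of 212 gene and comparison pairs that passed, none changed sign, and 21 missed the threshold after median centring, 37 after quantile normalization, 2 with a pseudocount of 0.1 and 11 with 5. For genes well under 1 FPKM a library's depth leaves few reads, so their differences are the least certain.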
